A study of Rattus norvegicus with 6 samples.

Results

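Integrins are paired receptors, each made of an alpha and a beta chain, that hold cells to the matrix around them or to other cells and pass signals inward through talin and its partners. Laminins are cross-shaped proteins of an alpha, a beta and a gamma chain that form the sheet of the basement membrane around cardiac muscle cells, vessels and nerve sheaths, and several integrins bind them. Leukocyte integrins share the beta chain Itgb2 and serve white blood cells in adhesion to vessel walls and in uptake of particles. The genes described here were taken by the name on the array, Itga or Itgb followed by letters or digits, or Lama, Lamb or Lamc followed by a digit, and each gene stands for its brightest probe. That gave 34 genes with 42 probes, of 26296 gene names on the array. They comprise 5 leukocyte integrins, 17 other integrin chains, 8 laminin chains and 4 proteins that bind integrins or resemble them and share the name stem. Itgav, Itga3, Itga9, Itga2b, Lama3, Lama4 and Lamb1 were not analysed here, since no probe was taken under these names.

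The arrays measured whole heart RNA of rats, with 3 samples from animals given AACO and 3 control samples, 1 array each. AACO, a Chinese medicine formula that the labels do not spell out, was given as a solution at 0.386 µg/g daily for 8 weeks, and controls had double-distilled water in its place. Tissue was taken 24 h after the last dose. The series text says that all animals, controls included, had TAC, which in work on heart failure mostly stands for transverse aortic constriction, and no group without it was analysed here. The same text speaks of mice, whereas Rattus norvegicus is the organism in the labels and the probes are placed on the rat build rn4. Age, sex and strain are not given in the sources used here.

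Levels below are log2 of the processed spot signal minus the array's 75th percentile, so 0 is a bright probe and each unit is a doubling. A probe's level also depends on its sequence, so levels are compared between groups for 1 probe and never between genes. A gene was tested where the scanner marked its probe as well above background on 3 or more arrays, and it is said to have risen or fallen where limma's p, adjusted over all 17525 genes tested, was under 0.05. Between 70.9% and 72.4% of spots were well above background on AACO arrays, against 66.0% to 68.7% on control arrays, and no spot was saturated. All AACO arrays lay on 1 slide with its own scan and all control arrays on another, so slide and treatment cannot be told apart. All 10 cardiomyocyte markers were tested and none was called, with a mean level between 6.95 and 7.09 on AACO arrays and between 6.86 and 7.31 on control arrays. The atrial light chain Myl7 stood at 5.41, 6.85 and -0.44 on AACO arrays 1, 2 and 3, against -1.66, -2.26 and -0.85 on control arrays, so AACO arrays 1 and 2 stood apart in it from the other 4. Of the other 3 atrial markers, Sln was at 1.97, 4.43 and 0.21 on AACO arrays, against -1.05, 0.23 and 0.067 on control arrays. Myl4 did not stand apart, at 7.41, 7.34 and 7.42 on AACO arrays, against 7.48, 7.60 and 7.29 on control arrays. Nppa was lowest on AACO array 1, at 3.38, 6.07 and 6.48 on AACO arrays, against 5.61, 5.91 and 7.64 on control arrays. The atrial level used below as a covariate is the mean of Myl7 and Sln and leaves out Myl4 and Nppa. For named genes that passed, calls that change when an array is left out are given below. No such results are given for cell type markers or the laminin beta 1 probe.

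The probes behind the genes that passed the test are shown because each value below is the binding of RNA to 60 bases of the transcript. They are read from the array files, whose positions are on rn4, and the strand is read from the order of the coordinates. No annotation of that build was at hand, so the exon or untranslated region that a probe lies in is not given. Itgam has a pair of probes, and capitals mark the 34 bases they share. The second one is placed over 534 bases of genome, the first over 60.
Itgam, brightest probe, chr1:187385524-187385583, plus strand: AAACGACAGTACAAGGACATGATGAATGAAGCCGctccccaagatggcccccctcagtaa
Itgam, other probe, chr1:187385032-187385565, plus strand: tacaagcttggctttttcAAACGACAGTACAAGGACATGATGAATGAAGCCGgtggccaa
Itga8, chr17:86427344-86427403, minus strand: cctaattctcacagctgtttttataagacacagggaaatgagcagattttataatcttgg
Itga11, chr8:66937038-66937097, plus strand: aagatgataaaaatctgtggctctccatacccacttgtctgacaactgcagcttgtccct
Lama5, chr3:169234188-169234247, minus strand: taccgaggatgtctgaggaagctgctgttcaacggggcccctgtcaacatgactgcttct
After the shared bases the brightest Itgam probe runs on for 26 bases and the other for 8, and some letters differ there. Both placements cover the same genome positions up to 187385565. At a letter that differs, at most 1 of the pair can therefore match the genome, and which one does was not tested.

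With AACO, 1 of the 29 genes tested rose and 3 fell. Itga8, an integrin alpha chain of smooth muscle and other mesenchymal cells, was 2.07-fold higher. Itgam, the alpha chain of the main macrophage and neutrophil integrin, was 1.60-fold lower. Lama5, a laminin alpha chain of vessel basement membrane, was 1.69-fold lower, and Itga11, a collagen-binding alpha chain of fibroblasts, was 1.58-fold lower. With the atrial level of each array (Myl7 and Sln) as a covariate none of the 4 was called, at log2 fold changes of 0.79 for Itga8, -0.62 for Itgam, -0.60 for Itga11 and -0.39 for Lama5 (limma adjusted p from 0.335 to 0.396), and no other gene on the array was called either. With the covariate the standard error was 0.29 for Itga8, 0.25 for Itgam and 0.21 for Itga11, against 0.19, 0.15 and 0.13 as reported. Myl7 did not overlap between groups, so the covariate runs partly along with treatment. A call lost in that fit cannot tell atrial content from lower precision. Without scaling between arrays Itgam, Itga11 and Lama5 kept their direction, at -0.13, -0.11 and -0.21, and were not called. These 4 genes are 13.8% of the 29 tested, and 10.9% of all genes tested were called, 4.98% higher and 5.94% lower, so the share is near the background. No overlap between the AACO and control values was found for 12 members, 41.4%, and for 37.4% of all genes tested. An unadjusted p under 0.05 was found for 10 members, and for 30.4% of all genes. The median log2 fold change of the 29 was -0.13, against -0.022 over all genes, with 11 members above 0 and 18 below. Over all genes the lowest and highest deciles were cut off at -0.54 and 0.55. Of the members, Itgb6, Itgb4, Itga8 and Itga4 lay above that range, and Lama5, Itgam, Itga11, Itgb5 and Itgb2 below it.

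**Figure D1:**
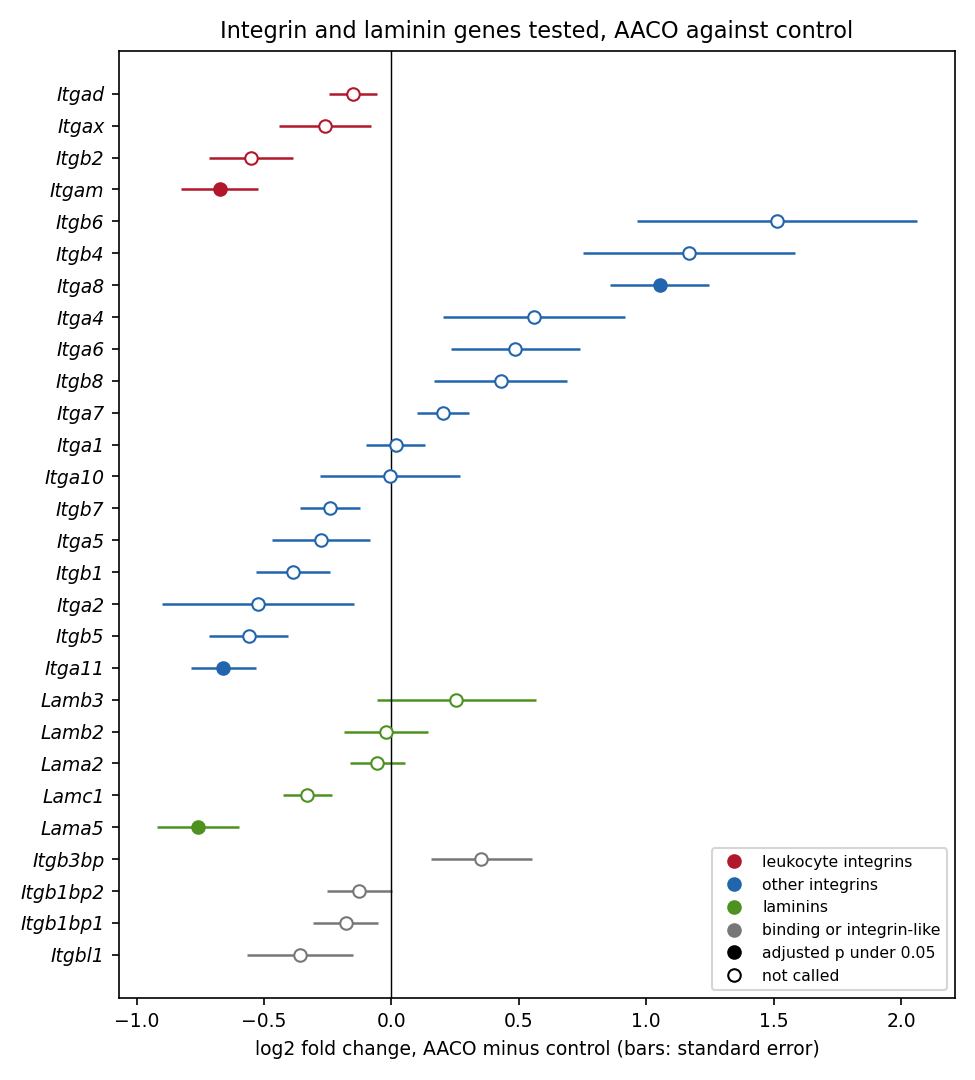
Log2 fold change, AACO minus control, of 28 of the 29 members tested, with the standard error as a bar, grouped by family; filled points have a limma adjusted p under 0.05. Itga8 is the only filled point right of 0, and Itgam, Itga11 and Lama5 are the filled points left of it.

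**Figure D2:**
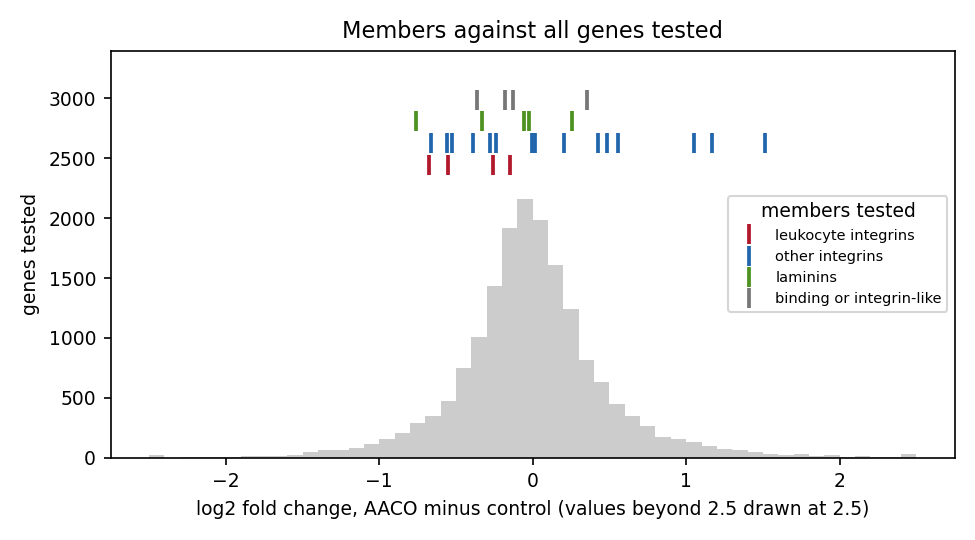
Histogram of the log2 fold changes, AACO minus control, of all 17525 genes tested, with a tick for each of the 28 members drawn above it, a row for each family. The 4 leukocyte integrins tested lie left of 0, between -0.67 and -0.15, while the other families lie on both sides; without scaling between arrays Itgad and Itgax move right of 0.

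The 4 leukocyte integrins that were tested all had a log2 fold change below 0, with a median of -0.41, and 1 of them fell. Of all genes tested, 4.98% rose and 5.94% fell. The other 25 members tested had a median of -0.022, with 1 that rose and 2 that fell. Whether the 2 sets differ was not tested. Without scaling between arrays, where the median over all genes was 0.52, Itgam and Itgb2 stayed below 0 at -0.13 and -0.0056, while Itgad was at 0.39 and Itgax at 0.29, all 4 below that median.

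Itgam pairs with Itgb2 to form the receptor that binds complement-coated particles and the vessel ligand Icam1. Its level was -1.84, -2.24 and -2.04 on AACO arrays, against -1.39, -1.53 and -1.16 on control arrays. Every AACO array was below every control array. The means were -2.04 ± 0.20 with AACO and -1.36 ± 0.19 in controls (SD, n = 3 each), a log2 fold change of -0.67 ± 0.15 (SE; limma adjusted p = 0.0397). The other Itgam probe read -4.87, -5.01 and -4.89 on AACO arrays, against -4.10, -4.04 and -3.35 on control arrays. It gave the same order of groups with a larger difference, -1.09 ± 0.21 (limma adjusted p over all probes = 0.0284). It shares 34 bases with the first, however, and differs from it in letters placed on the same stretch of genome. Leaving out any 1 array kept the direction and ended the call, with adjusted p between 0.0546 without control replicate 2 and 0.122 without AACO replicate 2.

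Itgb2 is the beta chain that every leukocyte integrin alpha chain needs to reach the cell surface. Its probe was placed at chr20:11446736-11446795 on the minus strand of rn4. It read -2.81, -2.51 and -2.79 on AACO arrays, against -2.43, -2.10 and -1.91 on control arrays. The groups did not overlap, but the highest AACO array lay within 0.1 of the lowest control array. The log2 fold change was -0.55 ± 0.17 and did not pass the test (adjusted p = 0.0813). Without control replicate 1 it was -0.69 with an adjusted p of 0.0477, and without control replicate 3 it was -0.43 with an adjusted p of 0.192.

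The alpha chains Itgax and Itgad, which mark dendritic cells and subsets of macrophages, did not pass. Itgax was at -4.42, -4.05 and -4.74 on AACO arrays, against -4.11, -4.12 and -4.20 on control arrays. AACO array 2 was above all controls and the other AACO arrays below them, and the log2 fold change was -0.26 ± 0.18 (adjusted p = 0.369). Itgad was at -4.03, -4.04 and -3.96 on AACO arrays, against -3.90, -3.76 and -3.92 on control arrays. Its groups did not overlap, yet the difference was small, -0.15 ± 0.094 (adjusted p = 0.32). Itgal, the alpha chain of lymphocyte integrin, was too dim to test. It read -5.71, -5.96 and -5.84 on AACO arrays, where AACO arrays 2 and 3 were well above background, against -6.02, -6.88 and -6.37 on control arrays, none of them well above background. No fold is given for it.

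**Figure D3:**
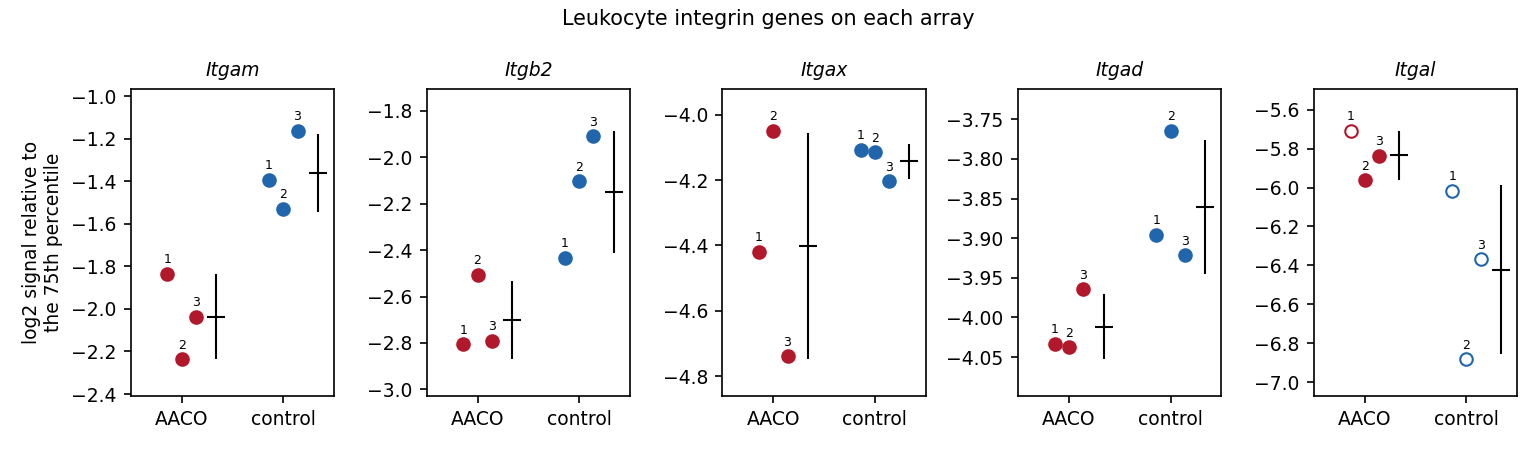
Level (log2 signal relative to the array's 75th percentile) of the 5 leukocyte integrins on each array, numbered by replicate, with AACO on the left and control on the right of each panel; the horizontal mark is the mean, the bar its SD, and open points were not well above background. Itgam, Itgb2 and Itgad have every AACO point below every control point, Itgax overlaps, and Itgal is at background on 1 AACO array and all control arrays.

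Most macrophage markers fell with AACO beside these genes. The other white cell lists had at most 1 gene called each, though all 3 neutrophil markers tested were lower, with a median of -1.65. In RNA from whole tissue, fewer cells of a type and less RNA per cell cannot be told apart. Of 12 macrophage and monocyte markers tested 9 fell, beside 5.94% of all genes tested, with a median log2 fold change of -1.20. Their mean level ran from -0.74 to -0.61 on AACO arrays, against 0.24 to 0.66 on control arrays. Adgre1, a surface marker of tissue macrophages, averaged -3.60 ± 0.089 with AACO and -2.04 ± 0.27 in controls (SD, n = 3 each), a log2 fold change of -1.56 ± 0.15 (limma adjusted p = 0.00651). Csf1r, the receptor for macrophage growth factor, was at -0.020 ± 0.18 on its brightest probe and was not called (adjusted p = 0.953), and its other probe was at -1.13. Of 6 neutrophil markers 3 were tested and 1 fell, Retnlg, at -1.66 ± 0.21 (adjusted p = 0.0101), while Csf3r was well above background on no array. S100a8 and S100a9 were at -1.65 and -1.47 and did not pass (adjusted p = 0.0508 and 0.0713). The mean of the 3 ran from -2.87 to -1.63 on AACO arrays, against -1.06 to -0.59 on control arrays. Of 7 genes tested from the T and NK cell list 1 fell, Cd4, at -1.11, and the list's median was 0.16. Which cells the Cd4 RNA came from was not tested. Cd8a, Nkg7, Klrb1a, Cd3g, Lck and Cd3d were at 0.45, 0.31, 0.19, 0.16, 0.0078 and -0.26 without passing. Cd8a was well above background on no control array. Of 5 dendritic cell markers 3 were tested and none was called, with Flt3 at 0.64, Clec9a at 0.62 and Zbtb46 at -0.79. None of 4 B cell markers was bright enough to test. The part of these cells in the level of Itgam or Itgb2 was not tested.

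Partners of the leukocyte integrins were read from lists of pathway genes. Of 10 regulators tested none rose and 1 fell, with a median of -0.35, while 4.98% of all genes tested rose and 5.94% fell. The gene that fell was Fcer1g, a signalling adaptor of Fc receptors and integrins in myeloid cells. It read 1.09, 1.22 and 1.13 on AACO arrays, against 1.51, 1.74 and 2.02 on control arrays, a log2 fold change of -0.61 ± 0.15 (adjusted p = 0.0485). Fcer1g was called under 6 of 18 alternatives and not with quantile normalization (adjusted p = 0.0644) or the mean of its probes (0.0996), within a range of 0.0186 to 0.852. Among ligands and tetraspanins, 14 of 15 names were on the array and 12 were tested. None rose and 2 fell, Icam2 and F11r, with a list median of -0.16. Icam2, an endothelial ligand of Itgal, read -0.49, -0.32 and -0.078 on AACO arrays, against 0.61, 0.52 and 0.69 on control arrays. All AACO values lay below all control values, and the log2 fold change was -0.90 ± 0.13 (adjusted p = 0.0142). Without AACO replicate 1 or 2 the adjusted p was 0.0501 or 0.0679. F11r, a junction protein that also binds Itgal, was at -0.47 ± 0.11 (adjusted p = 0.0454). F11r was called under 5 of 18 alternatives and not with quantile normalization (adjusted p = 0.0525), median scaling (0.0735), the series matrix values (0.0524) or no filter (0.0523), within a range of 0.0349 to 0.809. Icam1 was at -0.33 ± 0.26 and Vcam1 at 0.41 ± 0.53, and neither was called.

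Of the 15 other integrin chains tested, 1 rose and 1 fell, both of them alpha chains. Among all genes tested 4.98% rose and 5.94% fell, so these calls are no result about alpha chains as a set. Itga8 pairs with Itgb1 and binds matrix proteins through their RGD motif. Its level was -1.38, -1.82 and -2.05 on AACO arrays, against -2.96, -2.83 and -2.61 on control arrays. Every AACO array was above every control array, with means of -1.75 ± 0.34 and -2.80 ± 0.17 (SD, n = 3 each). The log2 fold change was 1.05 ± 0.19 (limma adjusted p = 0.025). A second Itga8 probe was well above background on 1 AACO array and no control array and was not tested. Without AACO replicate 3 the adjusted p was 0.0251, and without any other single array it lay between 0.0532 and 0.0863. Of 8 smooth muscle and pericyte markers none was called, with a median of 0.42 and a mean level between 0.83 and 1.27 on AACO arrays, against 0.61 to 0.78 on control arrays. Rgs5 went the other way, at -0.40, Cspg4 was at 0.026, and the others lay between 0.14 and 0.77. No overlap between groups was found for 5 of the 8, Rgs5 and, with AACO higher, Myh11, Tagln, Cnn1 and Kcnj8, beside 37.4% of all genes tested. The part of these markers' cells in Itga8 was not tested.

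Itga11 is one of 4 alpha chains that bind collagen, and fibroblasts use it on fibrillar collagen. It read -4.45, -4.48 and -4.44 on AACO arrays, against -3.68, -3.66 and -4.04 on control arrays. The AACO values were close together and below every control value, with means of -4.46 ± 0.019 and -3.79 ± 0.21 (SD, n = 3 each). The log2 fold change was -0.66 ± 0.13 (limma adjusted p = 0.0287). Leaving out control replicate 3, the lowest control, gave -0.78 with an adjusted p of 0.0339, and leaving out any other single array gave an adjusted p between 0.0505 and 0.104. The 7 fibroblast markers had mean levels of 1.83 to 2.36 on AACO arrays and 1.83 to 2.43 on control arrays, with none called. Itga1, the collagen-binding chain of smooth muscle and fibroblasts, was at 3.71, 3.47 and 3.44 on AACO arrays, against 3.53, 3.61 and 3.44 on control arrays. These overlapped throughout, with a log2 fold change of 0.016 ± 0.11 (adjusted p = 0.938) whose sign changed between processing alternatives.

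Of the laminin-binding alpha chains, Itga7 is the one that cardiac and skeletal muscle cells carry. It was at 1.71, 1.51 and 1.65 on AACO arrays, against 1.51, 1.39 and 1.37 on control arrays. The AACO values were higher without overlap, by a margin of under 0.01, and the log2 fold change of 0.20 ± 0.10 did not pass (adjusted p = 0.231). Itga6, which pairs with Itgb4 or Itgb1, was at 0.49 ± 0.25 (adjusted p = 0.244).

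No beta chain outside the leukocyte set passed the test. Of the 6 tested, 4 did not overlap between groups, beside 37.4% of all genes tested. Itgb1, the partner of most matrix-binding alpha chains, read 2.59, 2.36 and 2.83 on AACO arrays, against 2.86, 2.98 and 3.11 on control arrays. All AACO values were lower, with a log2 fold change of -0.39 ± 0.15 (adjusted p = 0.136). Its pair of probes disagreed: the other probe was at 0.76, 0.60 and 0.53 on AACO arrays, against 0.14, 0.83 and 0.86 on control arrays, a difference of 0.018 ± 0.21 with overlap. The 2 Itgb1 probes are shown because they read separate stretches of the gene on the minus strand of rn4.
Itgb1, brightest probe, chr19:58600532-58600591: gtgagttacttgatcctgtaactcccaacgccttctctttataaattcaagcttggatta
Itgb1, other probe, chr19:58611137-58611196: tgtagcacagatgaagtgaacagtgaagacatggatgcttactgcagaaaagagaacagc
The lower value of Itgb1 with AACO was therefore read by 1 of its 2 probes.

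Itgb5, a beta chain of vitronectin receptors that was picked out after its values were seen, read 0.44, 0.23 and 0.35 on AACO arrays, against 1.18, 0.64 and 0.88 on control arrays. All AACO values were lower, and the log2 fold change of -0.56 ± 0.16 did not pass (adjusted p = 0.0681). Its other probe was at -0.16 ± 0.14, with overlap.

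Itgb4, which pairs with Itga6 in epithelial anchoring junctions and in the sheath cells of nerves, had a wide spread with AACO. It was at 2.33, 2.13 and 0.75 on AACO arrays, against 0.37, 0.85 and 0.49 on control arrays. AACO arrays 1 and 2 stood above the rest, and AACO array 3 lay among the controls. The log2 fold change was 1.17 ± 0.42 (adjusted p = 0.12), and without AACO replicate 3 it was 1.66 (adjusted p = 0.0147). Over all alternatives its adjusted p ran from 1.09e-04 without scaling to 0.915 with the atrial level as a covariate, which gave 0.14. The 4 Schwann cell markers, genes of nerve sheath cells, had mean levels of -0.33, -0.45 and -2.05 on AACO arrays, against -2.68, -2.02 and -3.59 on control arrays. Among these markers 1 rose, Sox10 (limma adjusted p = 0.0466), beside 4.98% of all genes tested, and fits without single arrays are not given for it. Sox10 read 0.20, -0.19 and -1.13 on AACO arrays, against -1.77, -1.60 and -2.13 on control arrays. AACO arrays 1 and 2 were thus highest for Itgb4, for these markers and for Myl7 alike, and the part of nerve or atrial tissue in Itgb4 was not tested.

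Itgb6, a beta chain of epithelia that was also picked out after its values were seen, read -2.98, -3.10 and -4.09 on AACO arrays, against -4.12, -4.53 and -6.06 on control arrays. Control array 3 was not well above background. The log2 fold change of 1.51 ± 0.55 was the highest among the members, and it did not pass (adjusted p = 0.124). Over its alternatives it ran from 0.37 with normexp background correction to 2.06 without scaling, and it was 0.94 without control replicate 3. The other 7 integrin chains tested, Itga10, Itga2, Itga4, Itga5, Itga6, Itgb7 and Itgb8, lay between -0.53 and 0.56, with adjusted p from 0.223 to 0.993 and 1 gene, Itgb7, without overlap. Itga4 was above background on 3 AACO arrays and 1 control array, and Itga2 on 2 of each. Itgb3, the beta chain of platelet and endothelial receptors, was well above background on 2 AACO arrays and no control array, and no fold is given for it. Itgae was well above background on no array.

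**Figure D4:**
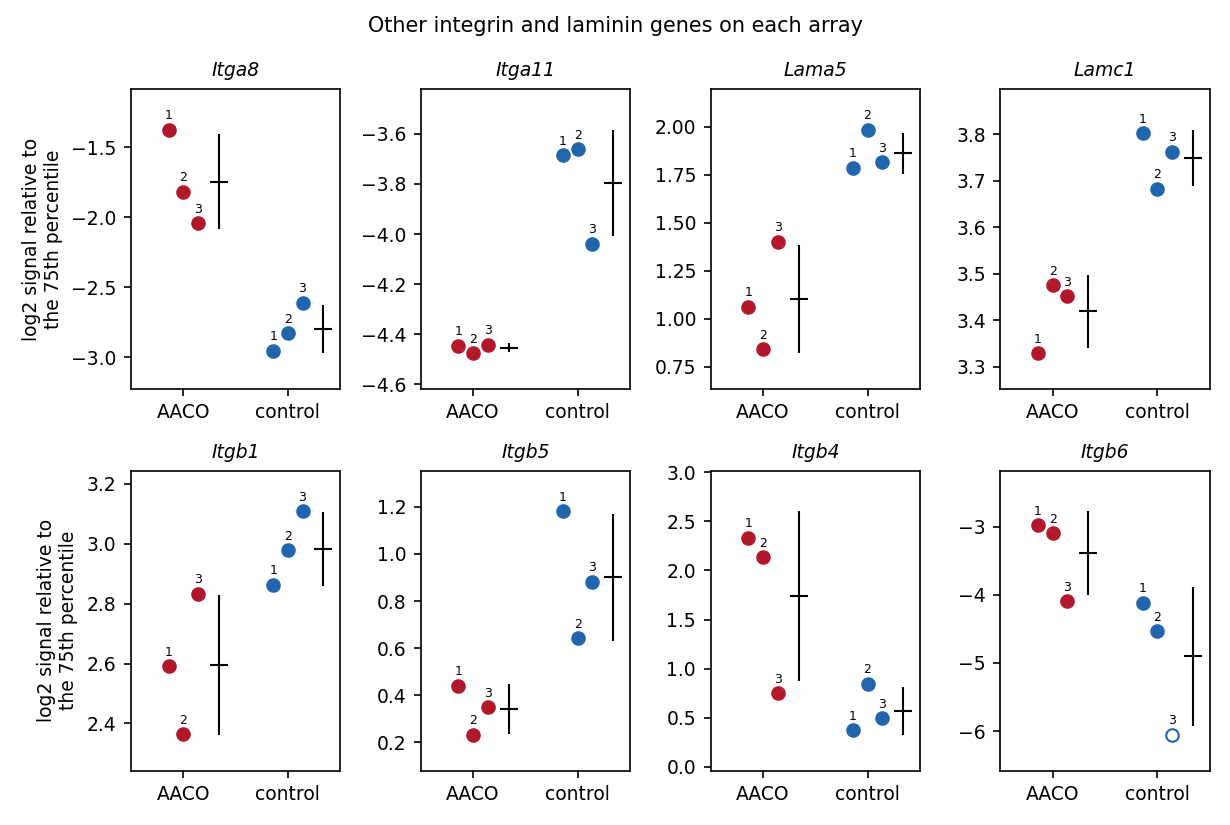
Level (log2 signal relative to the array's 75th percentile) on each array for Itga8, Itga11, Lama5, Lamc1, Itgb1, Itgb5, Itgb4 and Itgb6, with AACO left of control, the mean and its SD beside the points, and open points not well above background. Itga8 and Itgb6 have every AACO point above the controls, Itga11, Lama5, Lamc1, Itgb1 and Itgb5 have every AACO point below them, and in Itgb4 AACO replicate 3 lies among the controls.

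Of the 8 laminin chains taken by name, 6 were tested and 1 fell, beside 5.94% of all genes tested, with a median log2 fold change of -0.039. Lama5, the alpha chain laid down by endothelial and epithelial cells, read 1.06, 0.84 and 1.40 on AACO arrays, against 1.79, 1.98 and 1.81 on control arrays. All AACO arrays were below all control arrays, with means of 1.10 ± 0.28 and 1.86 ± 0.11 (SD, n = 3 each). The log2 fold change was -0.76 ± 0.16 (limma adjusted p = 0.0356). Without AACO replicate 3, the highest AACO array, it was -0.91 with an adjusted p of 0.0219, and without any other single array the adjusted p lay between 0.0613 and 0.117. With the atrial level of each array as a covariate it was -0.39 (adjusted p = 0.396), and over all alternatives its adjusted p ran from 0.0162 to 0.508. Of 8 endothelial markers none was called, with a median of -0.32 and mean levels of 0.91 to 0.97 on AACO arrays, against 1.18 to 1.26 on control arrays, and their part in Lama5 was not tested.

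Lama2, the alpha chain around muscle fibres whose loss causes muscular dystrophy, read 1.74, 1.60 and 1.45 on AACO arrays, against 1.68, 1.62 and 1.66 on control arrays. The groups overlapped, at -0.055 ± 0.11 (adjusted p = 0.76). Lamc1, the gamma chain of most laminins, read 3.33, 3.48 and 3.45 on AACO arrays, against 3.80, 3.68 and 3.76 on control arrays. All AACO values were lower, and the log2 fold change of -0.33 ± 0.095 did not pass (adjusted p = 0.0741). The other Lamc1 probe was at -0.18 ± 0.14, with overlap. Lamb2, the beta chain of muscle and vessel basement membrane, read 3.40, 3.08 and 3.21 on AACO arrays, against 3.56, 3.13 and 3.06 on control arrays. Its groups overlapped, at -0.022 ± 0.17 (adjusted p = 0.943), and its sign changed between alternatives.

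Lamb3, a beta chain of epithelial laminin, read -1.43, -2.62 and -2.34 on AACO arrays, against -2.22, -2.31 and -2.62 on control arrays, at 0.25 ± 0.31 (adjusted p = 0.615). AACO array 1 was the highest for Lamb3, and without it the value was -0.097. Lama1, an alpha chain of the embryo, and Lamc3 were well above background on no array.

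The 4 other proteins taken by the name rule lay between -0.36 and 0.35 and none passed, with adjusted p from 0.279 to 0.534 and all groups overlapping. They are Itgb1bp1, an adaptor that binds the tail of Itgb1, Itgb1bp2, the muscle chaperone melusin, Itgb3bp, a centromere protein, and Itgbl1, a secreted protein with integrin-like repeats.

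On the inner side of integrins, 25 of 26 adhesion complex genes were tested. None rose, 2 fell and the median was -0.18, while 4.98% of all genes tested rose and 5.94% fell. Talin, Tln1, which switches integrins on by binding the beta chain tail, read 3.42, 3.38 and 3.67 on AACO arrays, against 4.07, 3.87 and 4.13 on control arrays. The groups did not overlap, and the log2 fold change was -0.53 ± 0.13 (adjusted p = 0.0484). Paxillin, Pxn, a scaffold of the same complex, read 0.26, 0.33 and 0.53 on AACO arrays, against 0.89, 0.89 and 0.77 on control arrays. It was at -0.47 ± 0.11 (adjusted p = 0.0441), and its other probe was at -0.62. Tln1 and Pxn were each called under 7 of 18 alternatives. Without scaling, both Tln1 and Pxn were above 0, at 0.015 and 0.073, and below the median of all genes there. For Tln1, Pxn, F11r and Fcer1g, leaving out single arrays gave adjusted p from 0.0332 to 0.152, and at least 5 of the 6 such fits for each gene did not reach a call.

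Outside the cell, 13 of 18 matrix ligands of integrins were tested, with none higher, 1 lower and a median of -0.34. Of all genes tested, 4.98% were higher and 5.94% lower. The gene that fell was Ccn2, a matricellular protein that binds several integrins and is induced by TGF-beta. It read 1.76, 1.72 and 1.76 on AACO arrays, against 2.87, 3.21 and 3.35 on control arrays. The AACO values were close together and all lower, with a log2 fold change of -1.40 ± 0.14 (adjusted p = 0.00663), and every fit without 1 array called it. Of the basement membrane partners of laminin, 13 of 16 names were on the array and 12 were tested, with none called and a median of 0.10. Hspg2, Col4a6 and Npnt, of that list, were not analysed here.

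Laminin is also held by dystroglycan and the sarcoglycans, which link it to dystrophin in the muscle cell. Of 18 genes of this complex and other laminin receptors, 17 were tested, 2 rose and 1 fell, with a median of 0.17. Among all genes tested 4.98% rose and 5.94% fell. Sgca read 2.78, 2.94 and 2.64 on AACO arrays, against 1.61, 1.94 and 1.83 on control arrays, a log2 fold change of 0.99 ± 0.13 (adjusted p = 0.0117). Sgcd read 0.075, -0.21 and -0.37 on AACO arrays, against -0.94, -0.88 and -0.88 on control arrays, at 0.73 ± 0.13 (adjusted p = 0.024). Neither gene overlapped between the groups. Sgca lost its call without AACO replicate 2 (adjusted p = 0.0552), while Sgcd was called without AACO replicate 3 (adjusted p = 0.0237) and lay between 0.0525 and 0.0853 without any other single array. Dag1, dystroglycan itself, was at 0.15 ± 0.087 and was not called.

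**Figure D5:**
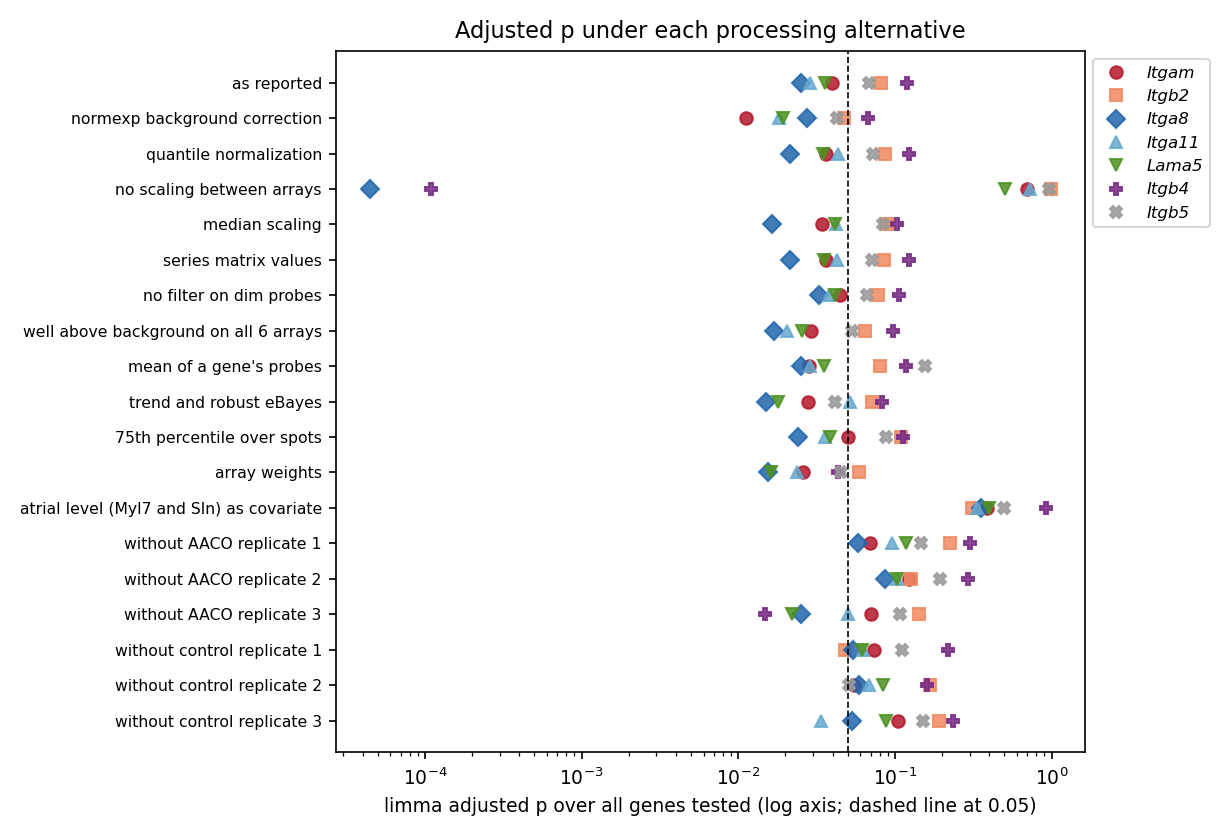
Adjusted p (log axis) of Itgam, Itgb2, Itga8, Itga11, Lama5, Itgb4 and Itgb5 in the fit as reported and under each of 18 alternatives, a row for each; the dashed line is at 0.05. Itga8 lies left of the line under 12 alternatives, Lama5 under 11, Itga11 under 10 and Itgam under 9, and with the atrial level as a covariate all 7 lie right of it.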

How the data were processed

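RNA of rat whole heart was measured on 6 Agilent arrays. The scans were processed by the authors with Agilent Feature Extraction 10.7.1.1, per the file headers. The intensity used, as deposited, is the processed signal of each spot, which has its background subtracted and no scaling across arrays. Log2 values deposited in the series matrix, whose normalization is not given in the sources used here, served as an alternative. Control spots and outlier spots were dropped, spots of a probe were averaged on the log2 scale, and each array's 75th percentile over its non-control probes was subtracted. Of 30367 probes, 30357 had values throughout, and 20112 passed the filter (well above background on 3 or more arrays). A gene was its probe of highest mean, which gave 17525 genes tested. Their groups, AACO and control, were compared with the R package limma 3.58.1, under R 4.3.3 (lmFit, then eBayes, with two-sided p-values, adjusted by Benjamini-Hochberg across all genes), and the script was tested on simulated data. The series text speaks of different donors but not of an animal for each array, so the spread that p-values rest on is that among 3 and 3 samples, which may be technical and whose number limits the precision. Other probes of a gene were fitted over all probes.

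The members and lists were chosen with earlier results of these data known. Values on every array are given for the leukocyte integrins, for members that passed, and for the 4 brightest other integrins and 4 brightest laminins that did not pass; Itgb5, Itgb6 and Lamb3 include choices made after values were seen. Some genes that these rules would name are not reported here singly, though they count in the totals. Of other lists, up to 4 genes that passed are named by smallest p, and a few others were added after their values were seen. The 18 alternatives changed the background correction, the scaling, the filter, the probe rule, the variance model, a covariate or the arrays included.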

Additional observations from a re-analysis of the deposited data

How the results depend on the processing

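Over 305 values of named members under the alternatives, 287 kept their direction and 18 reversed, 6 of them without scaling. As reported, 872 genes rose and 1041 fell (45.6% of calls rose), and 1 member rose and 3 fell. Normexp background correction gave 779 and 2016 (27.9% rose), and 1 and 6 members. No scaling, which by construction adds the same 0.55 to every log2 fold change and took the median of all genes to 0.52, gave 5484 and 232 (95.9% rose), and 9 and 0 members. No filter gave 898 and 3002 (23.0% rose), and 1 and 5 members. The 75th percentile over spots, chosen after seeing the data, gave 1104 and 865 (56.1% rose), and 1 and 2 members, without Itgam (adjusted p = 0.0502, range over its alternatives 0.0112 to 0.692). Array weights gave 1417 and 1637, and 2 and 4 members. The atrial level (Myl7 and Sln) as a covariate gave 0 and 0 by limma, 2276 genes at an unadjusted p under 0.05, and 0 and 0 members, 6 unadjusted. Leaving out 1 array gave 105 to 956 genes that rose and 191 to 1225 that fell, with 0 to 2 members that rose and 0 to 1 that fell. The lowest counts were without AACO replicate 2 (105 and 191) and AACO replicate 1 (170 and 284), then control replicate 3 (318 and 395), and without control replicate 2 there were 646 and 617. These fits have fewer arrays.

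Without scaling, log2 fold changes that this added shift turned above 0 were 0.39 for Itgad, 0.29 for Itgax, 0.16 for Itgb1, 0.49 for Lama2, 0.52 for Lamb2, 0.22 for Lamc1, 0.080 for F11r, 0.073 for Pxn and 0.015 for Tln1. With the atrial covariate Itga1 was at -0.028 and Lamb2 at 0.080. With the percentile over spots Lama2 was at 0.0048 and Lamb2 at 0.038, and Lamb2 was at 0.0087 with normexp and 0.0068 with median scaling. Leaving out 1 array, Itga1 ran from -0.070 to 0.068, Lama2 from -0.13 to 0.020, Lamb2 from -0.12 to 0.13 and Lamb3 from -0.097 to 0.50. The cause of the reversals other than those without scaling was not tested. Itga11 was lost with trend and robust fitting (adjusted p = 0.0517, range over its alternatives 0.0183 to 0.729).

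Slide or scan as a block was not run, since each group has its own. No paired analysis was possible because the groups share no replicate numbers in the titles. Genes below background on most arrays, such as Itgal, Itgb3, Itgae, Lama1 and Lamc3, are limited by signal.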

Other observations

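A probe that the array file describes as laminin beta 1, the beta chain of most laminins, carries a transcript identifier in place of a gene name, so the name rule did not take it. It was placed at chr6:49182887-49182946 in rn4. It read 3.22, 3.17 and 3.14 on AACO arrays, against 3.70, 3.63 and 3.54 on control arrays. Every AACO value was lower, with a log2 fold change of -0.44 ± 0.094 (limma adjusted p = 0.0357 over all genes tested). With the atrial level as a covariate, which runs partly along with treatment, no gene on the array was called, this one included. Fits without single arrays are not given for it. A second probe with that description was well above background on 1 control array and no AACO array. This probe was looked up after values of the other laminins were seen.

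Of 4 platelet markers, looked at beside Itgb3, 2 were tested and 1 fell, while 5.94% of all genes tested fell. The gene that fell was Pf4, a platelet chemokine, and which cells its RNA came from was not tested. It read 0.011, 0.16 and 0.45 on AACO arrays, against 1.31, 1.25 and 1.16 on control arrays, a log2 fold change of -1.03 ± 0.14 (limma adjusted p = 0.0116). Gp9, part of the platelet receptor for von Willebrand factor, was at 0.27 ± 0.19 and was not called (adjusted p = 0.379).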
